A study of Homo sapiens with 33 samples.

Results

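The 35 genes described here belong to the transcriptional program of ATF4 and CHOP. They were chosen by name as a list of stress regulators, amino acid enzymes and amino acid transporters, out of 15149 gene names found in the 3 tables of differential expression that the authors deposited. All 35 were measured in UM-UC-3 cells and 34 in each A-375 table, where NUPR1 was not analysed here. The list was read as a pair of arms. The stress arm held 15 genes, of which 8 encode transcription factors and 7 encode effectors or feedback regulators. The amino acid arm held 20 genes, of which 13 encode enzymes, 6 encode transporter chains and 1, XPOT, exports tRNA from the nucleus.

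ATF4 is translated when kinases that sense stress phosphorylate the initiation factor eIF2, which slows protein synthesis as a whole while favouring the ATF4 message. ATF4 then pairs with C/EBP-family proteins and switches on genes that make, import and load amino acids, together with DDIT3, which encodes CHOP, a factor tied to prolonged stress. Both arms are usually described as outputs of the same pathway, with CHOP and its partners marking the stress side. In cancer cells the pathway is known for sustaining serine, asparagine and one-carbon supply.

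The series holds 33 RNA-seq libraries from a pair of human cancer cell lines, A-375 from a melanoma (20 libraries) and UM-UC-3 from a bladder cancer (13 libraries), to see what follows when GABPB1 is deleted. GABPB1 is the B1 subunit of GABP, an ETS-family transcription factor, and occurs as a long and a short splice form. The knockouts were clones sorted after transfection of a Cas9 plasmid. B1KO clones lack exons 2 to 9 of the gene (4 A-375 and 4 UM-UC-3 libraries) and B1X2KO clones lack exon 2 (8 libraries from 5 A-375 clones, and 5 libraries from 4 UM-UC-3 clones). Together these form the total knockout, B1TKO. B1LKO clones lack exon 9, which the long form uses (2 A-375 libraries from 2 clones). The controls were ROSA26_KO clones, cut at a safe-harbour locus (4 A-375 libraries from 3 clones, 3 UM-UC-3 libraries), and parental cells with no edit (2 A-375 libraries, 1 UM-UC-3 library).

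Each value below is a log2 fold change of knockout over control with its standard error (SE), as fitted by the authors with DESeq2 over all libraries of a comparison, and calls were made at the authors' adjusted p under 0.05. Values for single libraries were not analysed here, so depth per sample is unknown and the spread between libraries enters only through the SE. The names of the tables give parental cells as the control, without saying whether ROSA26_KO clones were pooled in, so each UM-UC-3 value could depend on a single control library. P-values then measure the spread among these libraries, some of which come from the same clone. As a check of the labels, the long form (GABPB1L) changed by -12.79 ± 1.47 in the A-375 long-form knockout, -10.60 ± 0.70 in the A-375 total knockout and -12.60 ± 0.71 in the UM-UC-3 total knockout in the authors' deposited tables. Changes of this size mean that 1 group was near 0 counts, so they show the direction and are not exact folds. The short form (GABPB1S) does not give such a check in A-375. Its change was 13.95 ± 1.04 at a mean of 1020 normalized counts in the long-form table, which puts the controls near 0, and -9.81 ± 0.72 at a mean of 75.5 in the total-knockout table, which puts the knockouts near 0 and the controls well above it, from the authors' deposited tables. The A-375 tables thus disagree on the short form in the controls, and the cause was not tested. In UM-UC-3 the short form changed by -9.86 ± 2.70 in the authors' deposited table.

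SOX10 was much higher in A-375, while the other lineage markers did not separate the lines cleanly. Of 6 melanocyte-lineage markers, 3 were measured in the A-375 total-knockout table, with SOX10 at the authors' mean of 14704 normalized counts, MITF at 686 and PMEL at 20.1, and 4 in the UM-UC-3 table, with SOX10 at 93.6, MITF at 357, MLANA at 38.9 and DCT at 109. Of 6 urothelial markers, 2 were measured in A-375, with PPARG at 934 and GATA3 at 101, and 3 in UM-UC-3, with PPARG at 990, GATA3 at 194 and UPK1A at 35.3, again as the authors' means. The tables were normalized separately, so levels set across them are approximate. Their means summed to 19457299 in A-375 and 42400454 in UM-UC-3, so equal levels stand for a larger share of the A-375 total. The values are of bulk RNA, in which fewer expressing cells and less RNA per cell cannot be told apart.

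Promoters are shown first, because ATF4 partners read a composite C/EBP-ATF element, while GABP reads an ETS element. Promoter windows from RefSeq (build GRCh38.p14, 250 bases before to 50 after a transcript start) were matched by symbol for 29 of the 35 genes. The letters TGATGNAA, a core of the C/EBP-ATF element, were searched on both strands and found in the windows of 9 of the 29 genes (31.0%), against 1217 of 27305 genes with a window (4.46%). These 9 genes were ASNS, ATF3, CEBPG, CHAC1, JDP2, SLC1A4, SLC1A5, SLC3A2 and SLC7A1. Counted by window, the shares were 9 of 48 (18.8%) against 1270 of 35116 (3.62%). The list was chosen for its ties to ATF4, so the excess describes the choice and is not a test. The ETS letters CCGGAAG, also searched on both strands, were found for 4 of the 29 genes (13.8%), ASNS, DDIT3, TRIB3 and XPOT, against 3321 of the 27305 (12.2%). The motifs share no matched bases in the windows below. A match describes letters only, and no match says only that these letters are not in the window.

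Printed below are windows of the 5 members that changed in a comparison and hold a match. They run 5′ to 3′ on the strand of the gene, with matches to either motif in capitals. PHGDH, PSAT1, CEBPB, PPP1R15A, CTH and PCK2 also changed, and their windows hold neither motif. The ETS letters of ASNS lie in another of its windows, which is not printed. ASNS and SLC1A5, which fell in UM-UC-3 cells, and CEBPG, which rose there, hold the C/EBP-ATF letters on the gene's own strand. SLC1A4, which rose in A-375 cells, holds them on the opposite strand, where they read TTGCATCA. DDIT3 holds the ETS letters on the opposite strand, where they read CTTCCGG. Several genes have more than 1 start. All 5 windows belong to starts inside the annotated bounds of their genes, that of SLC1A5 furthest from the 5′ end.
ASNS, chr7:97872359-97872658, minus strand: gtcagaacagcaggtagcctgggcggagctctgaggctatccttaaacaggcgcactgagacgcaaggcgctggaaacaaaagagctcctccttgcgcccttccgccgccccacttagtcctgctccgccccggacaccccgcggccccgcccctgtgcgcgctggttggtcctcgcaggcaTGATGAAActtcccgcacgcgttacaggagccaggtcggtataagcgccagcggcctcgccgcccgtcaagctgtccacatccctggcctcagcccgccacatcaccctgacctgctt
SLC1A5, chr19:46784765-46785064, minus strand: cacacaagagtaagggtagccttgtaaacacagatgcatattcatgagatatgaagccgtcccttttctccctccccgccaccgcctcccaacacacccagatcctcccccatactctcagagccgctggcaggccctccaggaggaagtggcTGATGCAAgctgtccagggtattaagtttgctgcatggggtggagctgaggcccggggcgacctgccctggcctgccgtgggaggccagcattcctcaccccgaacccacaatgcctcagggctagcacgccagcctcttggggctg
CEBPG, chr19:33373863-33374162, plus strand: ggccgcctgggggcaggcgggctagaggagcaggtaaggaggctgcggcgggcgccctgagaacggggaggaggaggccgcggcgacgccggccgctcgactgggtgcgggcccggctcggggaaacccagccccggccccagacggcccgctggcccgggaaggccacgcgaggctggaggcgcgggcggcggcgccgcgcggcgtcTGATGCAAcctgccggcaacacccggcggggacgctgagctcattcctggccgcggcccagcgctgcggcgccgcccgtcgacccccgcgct
SLC1A4, chr2:64989149-64989448, plus strand: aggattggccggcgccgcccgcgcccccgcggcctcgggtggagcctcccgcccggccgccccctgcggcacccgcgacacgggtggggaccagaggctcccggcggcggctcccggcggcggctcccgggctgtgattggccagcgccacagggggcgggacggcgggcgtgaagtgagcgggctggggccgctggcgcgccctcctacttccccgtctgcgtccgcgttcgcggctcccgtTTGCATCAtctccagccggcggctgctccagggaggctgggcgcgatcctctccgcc
DDIT3, chr12:57520465-57520764, minus strand: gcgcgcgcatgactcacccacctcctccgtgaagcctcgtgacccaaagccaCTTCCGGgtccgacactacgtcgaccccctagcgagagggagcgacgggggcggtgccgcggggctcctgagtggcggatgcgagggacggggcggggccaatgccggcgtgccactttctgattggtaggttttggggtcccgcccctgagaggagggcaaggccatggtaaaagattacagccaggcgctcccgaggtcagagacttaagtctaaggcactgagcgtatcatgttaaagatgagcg
The first matched base lies at position -68 for ASNS, -97 for SLC1A5, -42 for CEBPG, -7 for SLC1A4 and -198 for DDIT3, counted from the transcript start. Of the 9 genes with C/EBP-ATF letters, CEBPG rose, ASNS and SLC1A5 fell and the other 6 were not called in the UM-UC-3 total knockout. Over all entries 17.0% were called higher and 14.2% lower there, so this count is near that of any genes.

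In UM-UC-3 cells with the total knockout, the called genes of the arms lay mostly on opposite sides of 0. DDIT3, CEBPB, CEBPG and PPP1R15A of the stress arm rose, and none of its members was called lower. In the amino acid arm PHGDH, PSAT1, ASNS, GPT2, PCK2 and SLC1A5 fell, while CTH and ALDH1L2 rose. Of the 35 members, 12 were called (34.3%), a share near the 31.1% of all entries called in this comparison. The stress arm had 4 of 15 higher and 0 lower, the amino acid arm had 2 of 20 higher and 6 lower, and over all entries 17.0% were called higher and 14.2% lower. The median log2 fold change was 0.20 in the stress arm, -0.22 in the amino acid arm and 0.030 over all entries. With the authors' q-value under 0.05 in place of the adjusted p, 19 members were called, and the stress arm then held ATF5 and CHAC1 as lower and TRIB3 as higher. The share of all entries at that q-value was not worked out. At an unadjusted p under 0.05 there were 19 of 35 members, against 5483 of 13310 entries. The list was not tested as a set, since its members were chosen with earlier results known.

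DDIT3 (chromosome 12, 57516588 to 57521737, hg38) had an implied mean of 4158 normalized counts in the UM-UC-3 knockouts, against 1056 in the controls, worked out from the authors' deposited table with 1 control library assumed. With all 4 control libraries assumed the implied values were 4994 in the knockouts and 1269 in the controls. Implied means for UM-UC-3 below assume 1 control library unless another number is given. The fitted change in the authors' deposited table was 1.98 ± 0.25 (SE; adjusted p 4.91e-13), a 3.94-fold rise, and its p ranked 22nd among the 2260 entries called higher. DDIT3 shares 355 of its 1307 exon bases with MARS and 58 with MBD6 on the opposite strand. The library kit keeps strand, but no source used here says how reads were assigned to strands. MARS, a methionyl-tRNA synthetase, moved the other way, changing by -0.89 (adjusted p 2.48e-07, the authors' deposited table), and MBD6 by 0.67 (adjusted p 9.83e-05).

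CEBPB (chromosome 20, 50190734 to 50192689), a C/EBP factor that pairs with ATF4 and CHOP, had implied means of 13659 normalized counts in the UM-UC-3 knockouts and 8098 in the controls, with 1 control assumed. It rose by 0.75 ± 0.20 (adjusted p 0.00139, the authors' deposited table). An antisense transcript, CEBPB-AS1, covers 231 of its 1956 exon bases and changed by 0.72 (adjusted p 0.106, the authors' deposited table). CEBPG (chromosome 19, 33373330 to 33382686), another ATF4 partner, had implied means of 8976 in the knockouts and 6364 in the controls and rose by 0.50 ± 0.16 (adjusted p 0.00815, the authors' deposited table).

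ATF4 itself was not called in UM-UC-3 cells (0.058 ± 0.15, 95% interval -0.24 to 0.36, adjusted p 0.806, the authors' deposited table). ATF4 activity is set largely by translation, which these RNA values do not measure. ATF3, a stress-induced factor of the same family, had a change of 0.95 ± 0.52 (adjusted p 0.154), and JDP2, a related repressor, -0.44 ± 0.26 (adjusted p 0.188, the authors' deposited table). NUPR1, a small stress-induced chromatin protein, had 0.20 ± 0.63 (adjusted p 0.835, the authors' deposited table). ATF5, translated by the same mechanism as ATF4 and linked to mitochondrial stress, had -0.38 ± 0.16 (adjusted p 0.0567, the authors' deposited table), a value that passed once the comparison was centred on its median (adjusted p 0.0374). NUP62 on the opposite strand shares 626 of the 2954 exon bases of ATF5 and changed by -0.30 (adjusted p 0.00244, the authors' deposited table).

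Among effectors and feedback genes of the stress arm, 1 of 7 was called in UM-UC-3 cells (14.3%), against 31.1% of all entries. PPP1R15A, which encodes GADD34 and brings a phosphatase back to eIF2, had implied means of 7334 normalized counts in the knockouts and 4286 in the controls (1 control assumed). It rose by 0.78 ± 0.21 (adjusted p 0.00134, the authors' deposited table). TRIB3, a pseudokinase that restrains ATF4, had a larger but less certain change of 1.29 ± 0.58 (95% interval 0.16 to 2.42, adjusted p 0.0724, the authors' deposited table). CHAC1, which breaks down glutathione and is a CHOP-ATF4 target, had -0.80 ± 0.36 (adjusted p 0.0753, the authors' deposited table), the opposite sign to DDIT3. SESN2, an inhibitor of mTORC1 signalling, had 0.59 ± 0.36, and DDIT4, another mTORC1 inhibitor, had 0.037 ± 0.22, in the authors' deposited table. The lipoprotein receptor VLDLR (-0.41 ± 0.30) and the secreted glycoprotein STC2 (-0.12 ± 0.17) were not called in the authors' deposited table either.

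**Figure D1:**
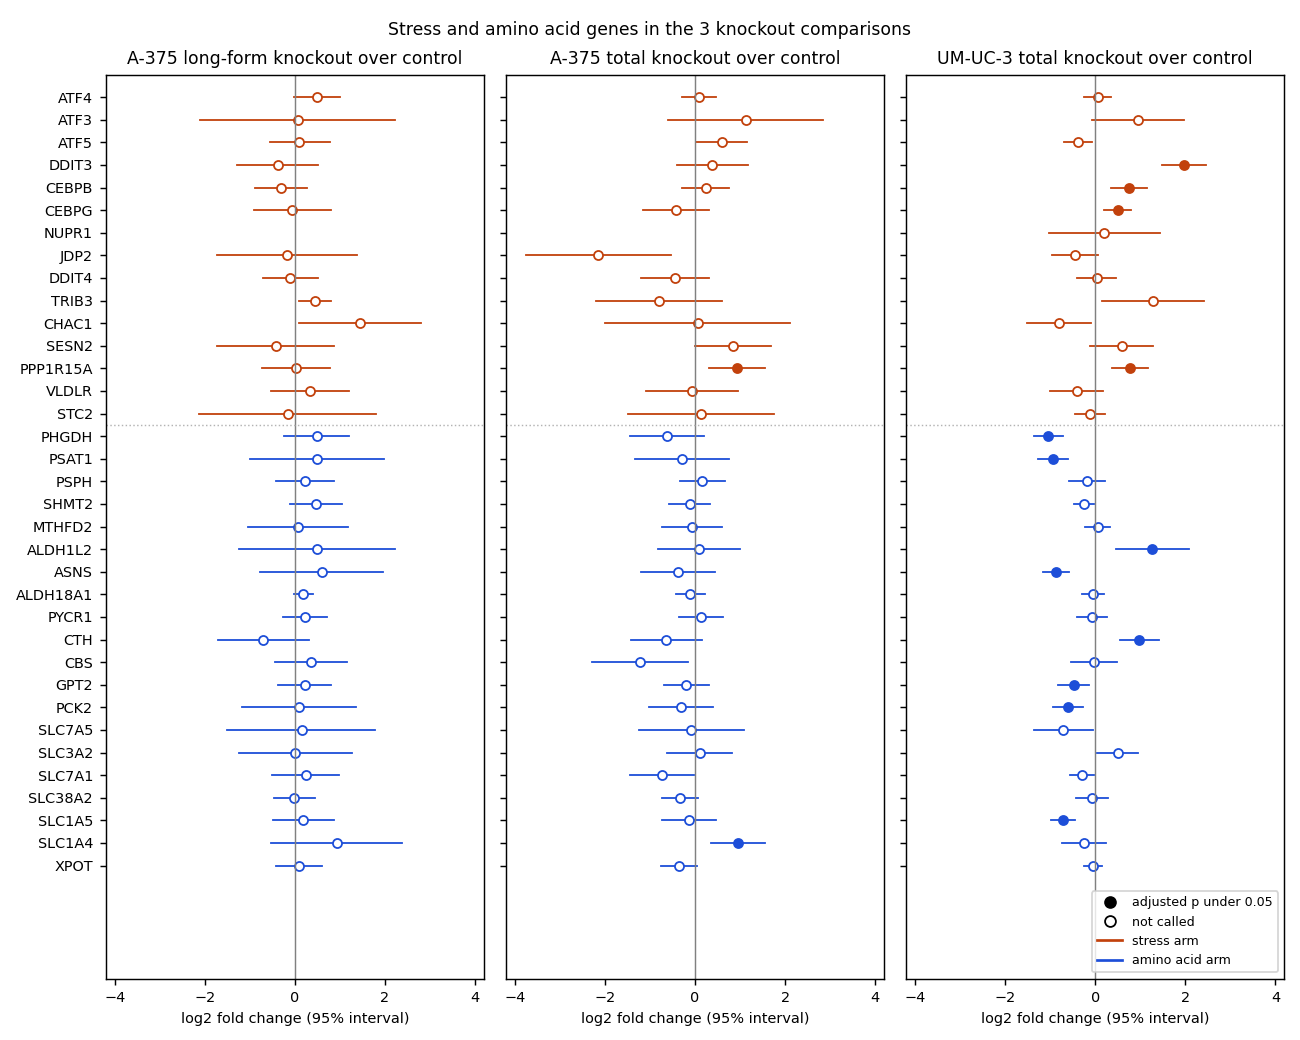
Log2 fold change of knockout over control (horizontal axis) with its 95% interval for each of the 35 genes (rows), in the A-375 long-form, A-375 total and UM-UC-3 total comparisons. Orange marks the stress arm, blue the amino acid arm, and filled points an adjusted p under 0.05, of which UM-UC-3 has 12, the A-375 total knockout 2 and the A-375 long-form knockout 0.

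In serine synthesis, the first steps fell in UM-UC-3 cells and the last was not called. PHGDH (chromosome 1, 119648411 to 119744226), which commits a glycolytic intermediate to serine, had implied means of 15593 normalized counts in the knockouts and 31967 in the controls (1 control assumed), and with 4 controls 13023 in the knockouts and 26698 in the controls. It changed by -1.04 ± 0.17 (adjusted p 2.33e-08, the authors' deposited table), which is 0.488 times the control level. PSAT1 (chromosome 9, 78297143 to 78330093), the aminotransferase of the next step, had implied means of 10560 in the knockouts and 20288 in the controls and changed by -0.94 ± 0.17 (adjusted p 1.38e-06, the authors' deposited table). PSPH, the phosphatase that releases serine, had -0.18 ± 0.20 (95% interval -0.58 to 0.21, adjusted p 0.516, the authors' deposited table).

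The mitochondrial one-carbon enzymes that use serine did not move as a block. SHMT2, which splits serine to glycine, had -0.25 ± 0.12 (adjusted p 0.0796, the authors' deposited table), a value that passed after centring (adjusted p 0.0462). MTHFD2, the next dehydrogenase, had 0.051 ± 0.14 (adjusted p 0.812, the authors' deposited table). ALDH1L2, which oxidises formyl-tetrahydrofolate in mitochondria, rose by 1.27 ± 0.42 (adjusted p 0.0108, the authors' deposited table), with implied means of only 78.1 normalized counts in the knockouts and 32.4 in the controls. On the opposite strand C12orf45 shares 145 of the 8507 exon bases of ALDH1L2, and SLC4A5 shares 1324 of the 4870 of MTHFD2.

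Of the other enzymes, ASNS (chromosome 7, 97852118 to 97872542), which makes asparagine and is a classic ATF4 target, had implied means of 18127 normalized counts in the UM-UC-3 knockouts and 33235 in the controls (1 control assumed). It changed by -0.87 ± 0.14 (adjusted p 5.74e-08, the authors' deposited table). PCK2, the mitochondrial enzyme that makes phosphoenolpyruvate, changed by -0.60 ± 0.17 (adjusted p 0.00250), and GPT2, the mitochondrial alanine aminotransferase, by -0.48 ± 0.18 (adjusted p 0.0282, the authors' deposited table). CTH, which makes cysteine from cystathionine, moved the other way, with implied means of 330 in the knockouts and 167 in the controls and a rise of 0.98 ± 0.22 (adjusted p 1.12e-04, the authors' deposited table). CBS, which makes the cystathionine that CTH uses, had -0.025 ± 0.26 (adjusted p 0.955, the authors' deposited table), though a near-identical copy of the gene, CBSL, makes its counts uncertain. The proline enzymes ALDH18A1 (-0.044 ± 0.12) and PYCR1 (-0.076 ± 0.17) lay close to 0 in the authors' deposited table.

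Among transporters, SLC1A5 (chromosome 19, 46774883 to 46788594), the main glutamine carrier of many cancer cells, had implied means of 12162 normalized counts in the UM-UC-3 knockouts and 19964 in the controls and changed by -0.71 ± 0.14 (adjusted p 1.18e-05, the authors' deposited table). The 2 chains of the large neutral amino acid transporter had changes of opposite sign, neither called. SLC7A5, the light chain, had -0.71 ± 0.33 (adjusted p 0.0876) and SLC3A2, the heavy chain, 0.50 ± 0.23 (adjusted p 0.0847, the authors' deposited table). SLC7A1, which imports arginine and lysine, had -0.30 ± 0.13 (adjusted p 0.0731, the authors' deposited table), and passed after centring (adjusted p 0.0456). Neither SLC38A2, a carrier induced by amino acid shortage (-0.073 ± 0.18), nor SLC1A4, a relative of SLC1A5 that carries serine and alanine (-0.26 ± 0.25), was called in the authors' deposited table. XPOT, the tRNA exporter, had -0.045 ± 0.11 in the authors' deposited table.

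**Figure D2:**
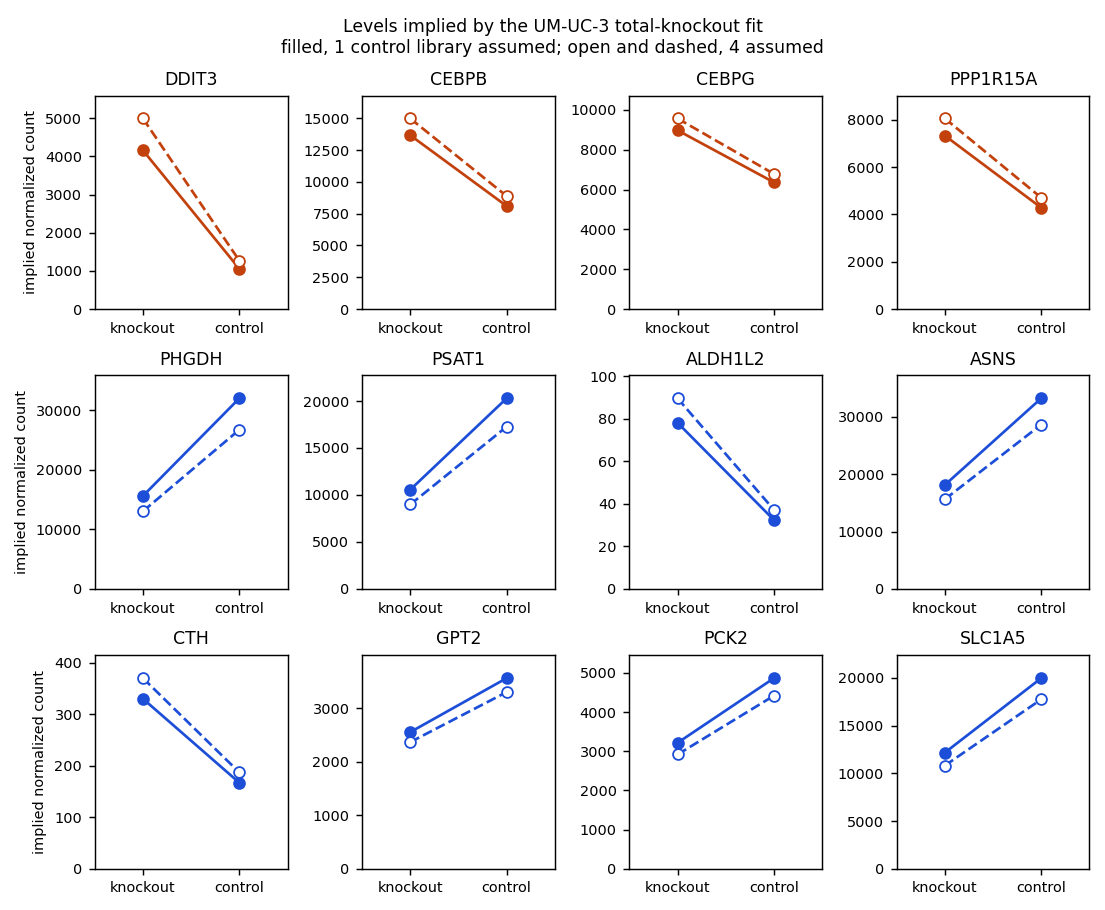
Implied mean normalized counts (vertical axes, starting at 0) in knockout and control UM-UC-3 libraries for the 12 genes called there; filled points assume 1 control library in the fit and open points with dashed lines assume 4. Under either assumption DDIT3, CEBPB, CEBPG, PPP1R15A, ALDH1L2 and CTH are higher in the knockouts and the other 6 are lower, by the same fitted ratio.

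In A-375 cells with the total knockout, 2 of 34 members were called (5.88%), against 10.8% of all entries, and both were higher, where 5.07% of all entries were called higher and 5.74% lower. SLC1A4 had implied means of 2471 normalized counts in the knockouts and 1275 in the controls with 2 parental controls assumed, and with 6 controls 2743 in the knockouts and 1415 in the controls. It rose by 0.95 ± 0.31 (adjusted p 0.0240, the authors' deposited table). PPP1R15A had implied means of 2665 in the knockouts and 1395 in the controls (2 controls assumed) and rose by 0.93 ± 0.32 (adjusted p 0.0354, the authors' deposited table). Both calls were lost at an adjusted p of 0.01.

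DDIT3 and the serine enzymes were not called in A-375. The stress arm had 1 of 14 members higher and 0 lower, with a median of 0.10, and the amino acid arm had 1 of 20 higher and 0 lower, with a median of -0.17, against -0.053 over all entries. Among the 20 amino acid genes 15 lay below 0 here, against 7825 of 14332 entries, and 16 lay below 0 in UM-UC-3, against 6293 of 13310 entries. In the A-375 long-form knockout 18 lay above 0, against 7389 of 14160 entries. DDIT3 had 0.38 ± 0.40 (95% interval -0.41 to 1.17, adjusted p 0.589, the authors' deposited table), and TRIB3 had -0.80 ± 0.71. PHGDH (-0.63 ± 0.41), PSAT1 (-0.29 ± 0.53) and ASNS (-0.37 ± 0.42) had intervals that include 0 in the authors' deposited table. Next below the threshold were JDP2 (-2.15 ± 0.82, adjusted p 0.0694, at a mean of 57.0 normalized counts) and CBS (-1.22 ± 0.55, adjusted p 0.131, the authors' deposited table), neither of them called. The counts of CBS are uncertain here too, because of CBSL. The median SE of the members was 0.37 in this comparison and 0.20 in UM-UC-3, so a member with the median SE needed a 2.05-fold change to be called in A-375 and a 1.40-fold change in UM-UC-3.

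In the A-375 long-form knockout no member was called by the authors' DESeq2 test (0 of 34), where 0.904% of all entries were called, 0.240% higher and 0.664% lower. At an unadjusted p under 0.05 there were 2 members, against 1545 of 14160 entries. CHAC1 had 1.45 ± 0.69 (adjusted p 0.420) and TRIB3 had 0.45 ± 0.18 (adjusted p 0.288, the authors' deposited table). The median was -0.012 in the stress arm and 0.22 in the amino acid arm, against 0.016 over all entries. DDIT3 had -0.38 ± 0.46, ASNS 0.60 ± 0.70, PHGDH 0.48 ± 0.37 and SLC1A4 0.93 ± 0.74 in the authors' deposited table, none of them called. With 2 knockout clones and a median SE of 0.42, a 2.79-fold change was needed at the median SE.

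**Figure D3:**
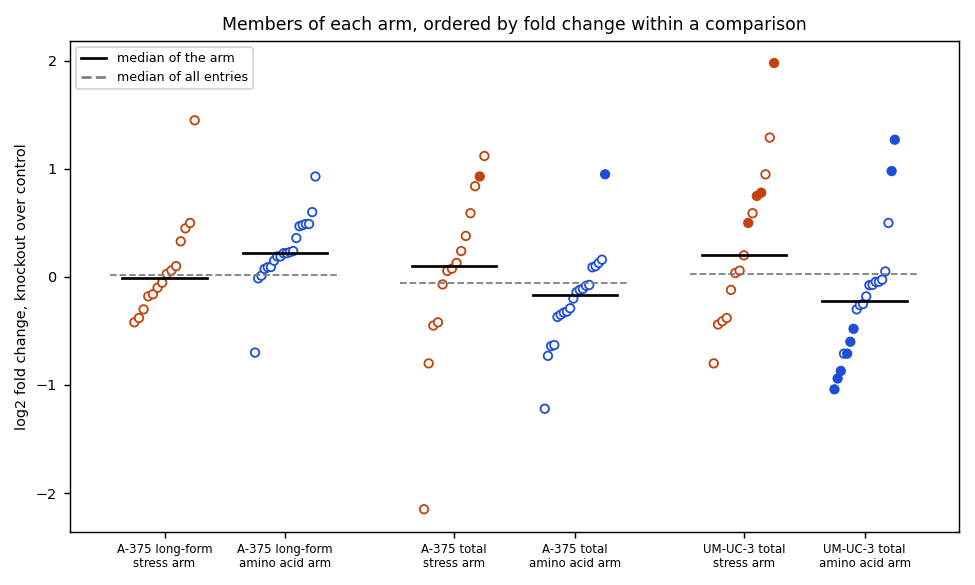
Log2 fold change of knockout over control (vertical axis) for every member, by comparison and arm; filled points have an adjusted p under 0.05, black lines are arm medians and dashed grey lines the median of all entries. In UM-UC-3 the stress arm has its median at 0.20 and the amino acid arm at -0.22, with DDIT3 the highest point at 1.98.

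The responses of the lines were compared gene by gene, as the A-375 minus UM-UC-3 difference in log2 fold change over its SE, adjusted over 12639 genes. Of 34 members 4 differed, against 10.4% of all genes tested, of which 2 had the higher change in A-375, against 4.12% of all genes, and 2 the lower one, against 6.32%. DDIT3 changed less in A-375 (0.38) than in UM-UC-3 (1.98), a difference of -1.60 ± 0.48 (adjusted p 0.0150). CTH differed by -1.62 ± 0.46 (adjusted p 0.0105), with -0.64 in A-375 and 0.98 in UM-UC-3. In the other direction SLC1A4 differed by 1.21 ± 0.39 (adjusted p 0.0284), with 0.95 in A-375 and -0.26 in UM-UC-3. ATF5 differed by 0.97 ± 0.33 (adjusted p 0.0359), with 0.59 in A-375 and -0.38 in UM-UC-3.

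For the amino acid genes that fell in UM-UC-3, a difference between lines was not shown. The A-375 minus UM-UC-3 difference was 0.41 for PHGDH (95% interval -0.47 to 1.28), 0.65 for PSAT1 (-0.44 to 1.74) and 0.50 for ASNS (-0.37 to 1.37). These intervals include both no difference and a difference as large as the UM-UC-3 change. For SLC1A5 the difference was 0.57 (-0.090 to 1.24). PPP1R15A, the member called in both lines, differed by 0.16 (-0.58 to 0.90). TRIB3 had a difference of -2.10 ± 0.92 that was not called (adjusted p 0.121).

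**Figure D4:**
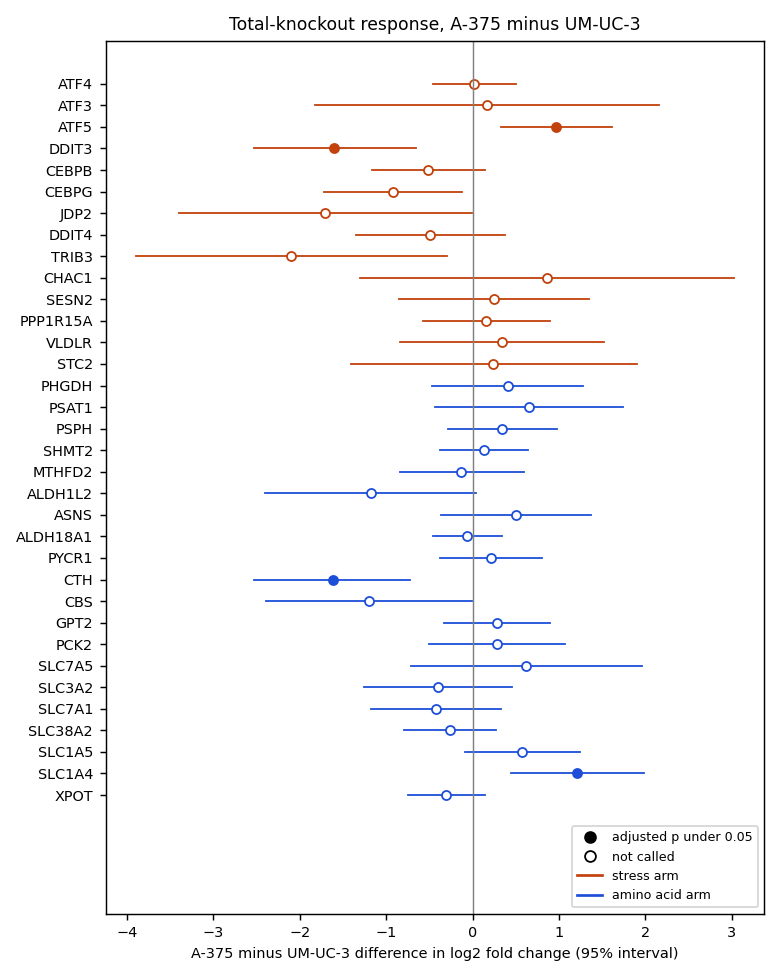
Difference in log2 fold change of the total knockout, A-375 minus UM-UC-3 (horizontal axis), with its 95% interval for the 34 genes tested. Filled points, adjusted p under 0.05, are DDIT3 and CTH to the left of 0 and ATF5 and SLC1A4 to the right.

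Within A-375 the long-form minus total difference was called for none of 34 members, against 4.45% of 13946 genes (2.66% higher and 1.79% lower in the long-form knockout). At an unadjusted p under 0.05 there were 2 members, against 2668 of the 13946 genes. CBS, whose counts are uncertain because of CBSL, had a difference of 1.58 ± 0.69 (adjusted p 0.172). Its changes were 0.36 in the long-form and -1.22 in the total knockout. PHGDH had 1.11 ± 0.56 (adjusted p 0.253), with 0.48 in the long-form and -0.63 in the total knockout. The A-375 comparisons may share control libraries, in which case these SEs are too large.

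Upstream of ATF4, genes of eIF2 signalling were called at shares of 16.7% in the A-375 total knockout and 33.3% in UM-UC-3, against 10.8% and 31.1% of all entries. Of 12 listed genes for eIF2, its kinases, a phosphatase subunit and its exchange factor, none was called in the A-375 long-form knockout. None had an unadjusted p under 0.05 there, against 1545 of 14160 entries. In the A-375 total knockout 0 were higher and 2 lower, and in UM-UC-3 1 was higher and 3 lower. EIF2AK1, which encodes the kinase HRI, changed by -0.31 ± 0.077 in the A-375 total knockout (adjusted p 0.00165) and by -0.34 ± 0.072 in UM-UC-3 (adjusted p 3.09e-05, the authors' deposited tables). EIF2B2, a subunit of the exchange factor eIF2B that recharges eIF2, changed by -0.75 ± 0.19 in A-375 (adjusted p 0.00263) and by -0.56 ± 0.12 in UM-UC-3 (adjusted p 8.53e-05, the authors' deposited tables). EIF2AK3, which encodes PERK, the kinase of the endoplasmic reticulum (ER), had 0.40 ± 0.26 in A-375 (adjusted p 0.327) and rose by 0.81 ± 0.17 in UM-UC-3 (adjusted p 4.37e-05, the authors' deposited tables). EIF2S2, the beta subunit of eIF2, changed by -0.41 ± 0.16 (adjusted p 0.0376) in UM-UC-3 in the authors' deposited table.

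The mitochondrial relay to HRI was also lower at 1 step. KIAA0141, now called DELE1, carries the signal from damaged mitochondria to HRI, and it changed by -0.98 ± 0.28 in the A-375 total knockout (adjusted p 0.0112) and by -1.06 ± 0.13 in UM-UC-3 (adjusted p 3.45e-13, the authors' deposited tables). In the long-form knockout it had -0.25 ± 0.11 (adjusted p 0.329, the authors' deposited table). OMA1, the protease that cleaves DELE1, rose by 0.53 ± 0.15 in the long-form knockout (adjusted p 0.0429) and had -0.77 ± 0.45 in the A-375 and -0.25 ± 0.15 in the UM-UC-3 total knockout, neither called, in the authors' deposited tables. ATF2, a related bZIP factor that was only listed beside the relay genes, rose by 0.72 ± 0.17 in UM-UC-3 (adjusted p 2.18e-04, the authors' deposited table). Of the 4 genes measured in this list, 1 was called in the long-form knockout, against 0.904% of all entries. In the A-375 total knockout 1 was called, against 10.8%, and in UM-UC-3 2 were called, against 31.1%. EIF2AK1, EIF2B2, EIF2AK3, DELE1 and OMA1 were looked up among the promoter windows, and the other genes of these lists were not. Those of DELE1, EIF2B2 and EIF2AK3 hold the ETS letters, that of OMA1 does not, and EIF2AK1 was not matched. Over all 27305 genes with a window, 12.2% hold these letters. The genes looked up were picked with earlier results known, so their matches are a description and not a test. The window of EIF2B2 is shown because its match, in capitals, begins at position -2, beside the transcript start.
EIF2B2, chr14:75002671-75002970, plus strand: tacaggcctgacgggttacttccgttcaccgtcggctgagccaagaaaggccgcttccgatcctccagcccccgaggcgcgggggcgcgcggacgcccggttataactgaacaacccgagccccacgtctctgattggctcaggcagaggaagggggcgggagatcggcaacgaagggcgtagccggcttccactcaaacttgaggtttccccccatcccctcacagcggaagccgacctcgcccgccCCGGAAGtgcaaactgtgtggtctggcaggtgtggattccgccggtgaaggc
EIF2AK3 holds the same letters at position -180 and rose in UM-UC-3, and DELE1 holds them at -245 on the opposite strand.

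Genes of ER folding, which answer mainly to XBP1 and ATF6, were called beside DDIT3 in UM-UC-3. Of 13 listed, 9 were higher and 0 lower there (median 0.62), against 17.0% of all entries called higher. DNAJB9, a cofactor of BiP, rose by 2.09 ± 0.27 (adjusted p 3.26e-12) and HSPA5, which encodes BiP, by 1.25 ± 0.26 (adjusted p 2.19e-05, the authors' deposited table). SEL1L, part of the ER degradation machinery, rose by 1.03 ± 0.19 (adjusted p 1.56e-06) and XBP1 by 0.75 ± 0.16 (adjusted p 7.49e-05, the authors' deposited table). In the A-375 total knockout none of the 13 was called (median 0.21), with 3 at an unadjusted p under 0.05, and in the long-form knockout none (median 0.080), with 1. Over all entries 3630 of 14332 in the total knockout and 1545 of 14160 in the long-form knockout had such a p. The part of ER stress in the DDIT3 value was not tested.

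Of 16 further ATF4 targets measured in UM-UC-3, 3 were higher and 2 lower, with a median of 0.037. The share called was 31.2%, against 31.1% of all entries. KLHL24, a ubiquitin ligase adaptor, rose by 1.63 ± 0.21 (adjusted p 1.01e-12) and HERPUD1, an ER degradation protein, by 0.90 ± 0.23 (adjusted p 9.21e-04, the authors' deposited table). TXNIP, which binds thioredoxin, rose by 1.26 ± 0.22 (adjusted p 2.91e-07, the authors' deposited table). SLC7A11, the cystine importer, changed by -0.72 ± 0.24 (adjusted p 0.0122, the authors' deposited table). In the A-375 total knockout none of the 16 was called, and none had an unadjusted p under 0.05, against 3630 of 14332 entries. In the long-form knockout TXNIP alone of the 16 was called, at -1.71 ± 0.34 (adjusted p 6.02e-04, the authors' deposited table). The share called was 6.25%, against 0.904% of all entries, of which 0.664% were lower.

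**Figure D5:**
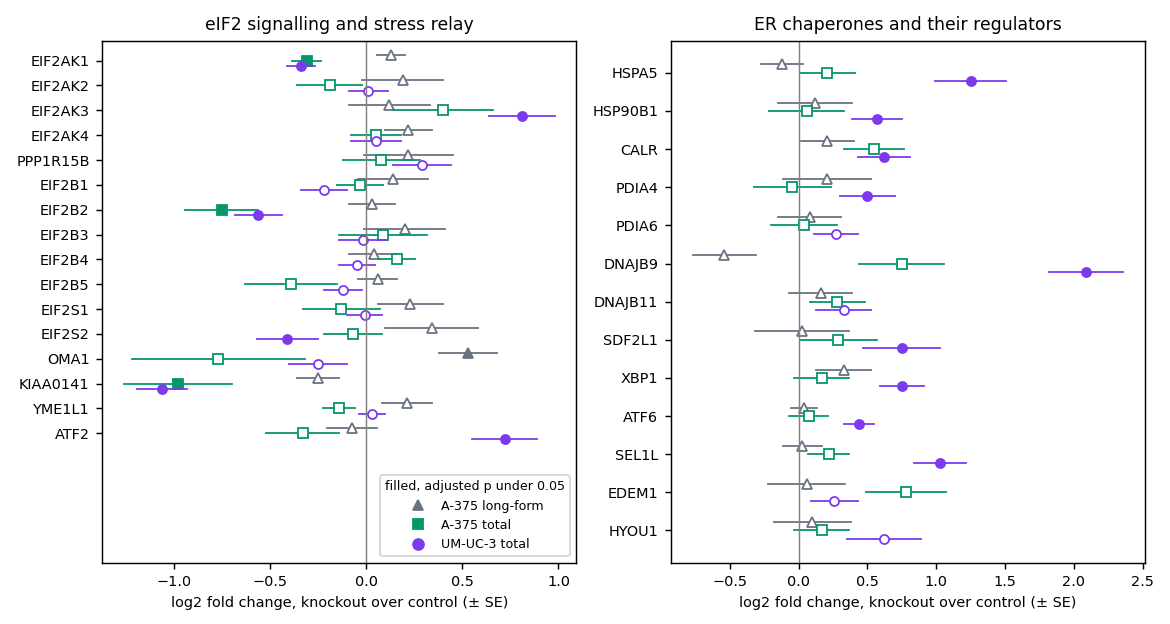
Log2 fold change of knockout over control with its SE (horizontal axis) for eIF2 signalling and relay genes (left) and ER folding genes (right), in the A-375 long-form (triangles), A-375 total (squares) and UM-UC-3 total (circles) comparisons; filled symbols have an adjusted p under 0.05. EIF2AK1, EIF2B2 and KIAA0141 lie below 0 in both total knockouts, and 9 of the 13 ER genes are filled and above 0 in UM-UC-3.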

How the data were processed

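Libraries were made with a stranded mRNA kit, per the labels' protocols. The submitters' processing notes name HISAT2, SAMtools, StringTie, DESeq2 and the hg38 build; no source used here gives versions, annotation, filters or the design formula. The authors deposited 3 tables of DESeq2 output. The signal column is the authors' mean of normalized counts over the libraries of a fit. The log2 columns hold the authors' fold change and its error, knockout over control. The score column holds the Wald statistic, per the file headers. The p-value columns were deposited as p, Benjamini-Hochberg adjusted p and q. Adjusted values recomputed from the deposited p-values differed by at most 6.98e-05.

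Calls used the deposited adjusted p under 0.05. Differences between tables were divided by the root of the summed squared errors and given normal two-sided p-values, adjusted by Benjamini-Hochberg across the genes whose mean reached 10 in both tables (Python 3.11.15, SciPy 1.17.1). This step was tested on simulated data with independent normal errors of the deposited size. Such data hold no shared controls and no repeated clones, so the simulation cannot check their effect. Intervals are 95% normal intervals. Implied group means solve the mean count and the fold change for assumed library numbers and treat libraries alike. When ROSA26_KO libraries were added to the assumed controls, 10 levels of called members moved by at least the SE and 18 did not. Gene places and shared exons come from the GENCODE annotation of hg38, promoters from RefSeq. The members and companion lists were chosen with earlier results of these data known. All members may be named, and up to 4 called genes of each of 5 companion lists per table. Alternatives were the q-value, stricter thresholds, filters on low counts and centring on the median. Among the companion genes, 1 result is not reported here.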

Additional observations from a re-analysis of the deposited data

Results flagged for a closer look

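The responses of 4 genes to the total knockout differed between the cell lines by a test of the difference itself, A-375 minus UM-UC-3. They were 4 of 34 members tested, against 10.4% of all genes tested, so the count is near that of any genes. DDIT3 differed by -1.60, being called higher in UM-UC-3 and not called in A-375. CTH differed by -1.62, with the same pattern of calls. SLC1A4 differed by 1.21, being called higher in A-375 and not called in UM-UC-3. ATF5 differed by 0.97 and was called in neither line. All 4 calls were lost at an adjusted p of 0.01, and the UM-UC-3 side of each may rest on 1 control library.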

How the results depend on the processing

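No paired analysis was possible because the deposited tables hold no values per library, and leaving out each replicate was not run for the same reason. In UM-UC-3 the 12 members called became 19 with the authors' q-value (8 higher, 11 lower) and 3 when a 2-fold change was also asked for (2 higher, 1 lower). The shares of all entries under these settings were not worked out, so the counts describe the thresholds only. In the A-375 total knockout the 2 calls became 0 at an adjusted p of 0.01 and 0 with the 2-fold condition. With the authors' q-value they became 3 (2 higher, 1 lower), as JDP2 of the stress arm was then called lower. The share of all entries was not worked out there either. The 4 differences between cell lines became 0 at an adjusted p of 0.01. Filters at a mean of 10 or 100 and centring kept each count within 1.5 times. No called value of a member changed sign. Depth per sample is unknown, and the SE limits what could be called.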

Other observations

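Paralogs and partners of the 35 genes were also listed. In UM-UC-3, 2 of 22 measured were higher and 4 lower. The share called was 27.3%, against 31.1% of all entries. TRIB2 and TRIB1, pseudokinases related to TRIB3, rose by 1.27 ± 0.35 (adjusted p 0.00209) and 0.89 ± 0.26 (adjusted p 0.00331, the authors' deposited table). GOT2, the mitochondrial aspartate aminotransferase, changed by -0.41 ± 0.13 (adjusted p 0.00730) and FOS, an AP-1 subunit, by -1.51 ± 0.59 (adjusted p 0.0388, the authors' deposited table). In the A-375 total knockout, 2 of 23 were higher, where 5.07% of all entries were called higher. STC1, a relative of STC2, rose by 3.19 ± 0.60 (adjusted p 1.85e-05) and the p53 target SESN1, a relative of SESN2, by 0.83 ± 0.27 (adjusted p 0.0262, the authors' deposited table). In the long-form knockout FOS alone of 23 was called, at -1.73 ± 0.38 (adjusted p 0.00336, the authors' deposited table). The share called was 4.35%, against 0.904% of all entries, of which 0.664% were lower.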
